A study of Mus musculus with 6 samples.

Results

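The genes that modify and export foreign chemicals were followed in the small intestine of mice, as a set of 39 named genes out of 45777 in the deposited expression table. They were picked by symbol: 12 cytochrome P450 genes and their reductase Por, 5 other phase 1 enzymes, 15 phase 2 enzymes, 3 efflux transporters and 3 sensors of foreign chemicals. All 39 were in the table, and 38 had enough reads to be tested. Total RNA was sequenced from 6 samples of small intestine. The 3 control libraries are titled DIO-GFP (1-1, 1-4 and 3-1), for green fluorescent protein, and the other 3 are titled DIO-zeta (2-1, 4-1 and 4-2) and labelled with overexpression of PKCzeta, an atypical kinase that is the product of Prkcz. The letters DIO, shared by all 6 libraries, are not explained in the sources used here, which also give no strain, age, diet, vector, promoter, time or segment of the intestine. The labels do not say that each library came from a separate animal, so p-values measure the spread between these samples only.

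Foreign chemicals and drugs are usually handled in steps. In phase 1, cytochrome P450 enzymes, which take electrons from the reductase Por, and other oxidoreductases and hydrolases add or expose a reactive group. In phase 2, transferases attach glucuronic acid (UGT), sulfate (SULT) or glutathione (GST), and ABC transporters then pump the products out of the cell, in the enterocyte back toward the gut lumen. Enterocytes carry out much of this first-pass metabolism. The nuclear receptors PXR (Nr1i2) and CAR (Nr1i3) and the aryl hydrocarbon receptor (Ahr) bind foreign ligands and raise the transcription of many of these genes.

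Most of the P450 genes and the conjugate export pump Abcc2 stood lower in the libraries labelled PKCzeta, and so did 12 of 12 enterocyte markers, at a median log2 fold change of -0.71. The median was -0.74 for the P450 list and -0.22 for the conjugating enzymes. On the scale of the authors' deposited TPM, values scaled to transcript length, the 2 medians were -0.45 and 0.01. A difference between the lists was not tested. No member passed the adjusted threshold of 0.05 in edgeR's quasi-likelihood test with Benjamini-Hochberg adjustment. The members' adjusted p ran from 0.858 to 0.998, and 0% of all 18456 genes tested were called. DESeq2, which gave Cyp1a1 no adjusted p, and limma voom also called 0 members, and DESeq2 called 0.444% of all genes. At an unadjusted p below 0.05, edgeR had 8 of the 38 members lower (21.1%) and 0 higher, where 3.07% of all genes were lower and 2.41% higher. The 2 groups did not overlap for 8 members, all lower in the libraries labelled PKCzeta, where 5.66% of all genes lay wholly lower and 4.72% wholly higher. Of the 38, 32 had a negative log2 fold change, and their median was -0.37, beside a median of 0.04 over all genes tested, 45.8% of which lay below 0. On the TPM scale 24 of the 38 were negative, but there all genes shifted upward, with 21.7% below 0, and 30 members (pseudocount 1) or 31 (pseudocount 0.1) lay below the median of all genes.

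The count of 8 changed when a library was left out. It was 2 without GFP 1-4, 3 without PKCzeta 2-1 and 4 without PKCzeta 4-2, and 11 without GFP 1-1. Leaving out a library also leaves fewer libraries to test every gene. The share of all genes in these fits is not given, so the changes cannot be set against it. GFP 1-4 was the highest library for 24 of the 38 members (63.2%, against 17.6% of all genes) and the lowest for 0. PKCzeta 4-2 was the lowest library for 21 members (55.3%, against 17.2% of all genes).

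**Figure D1:**
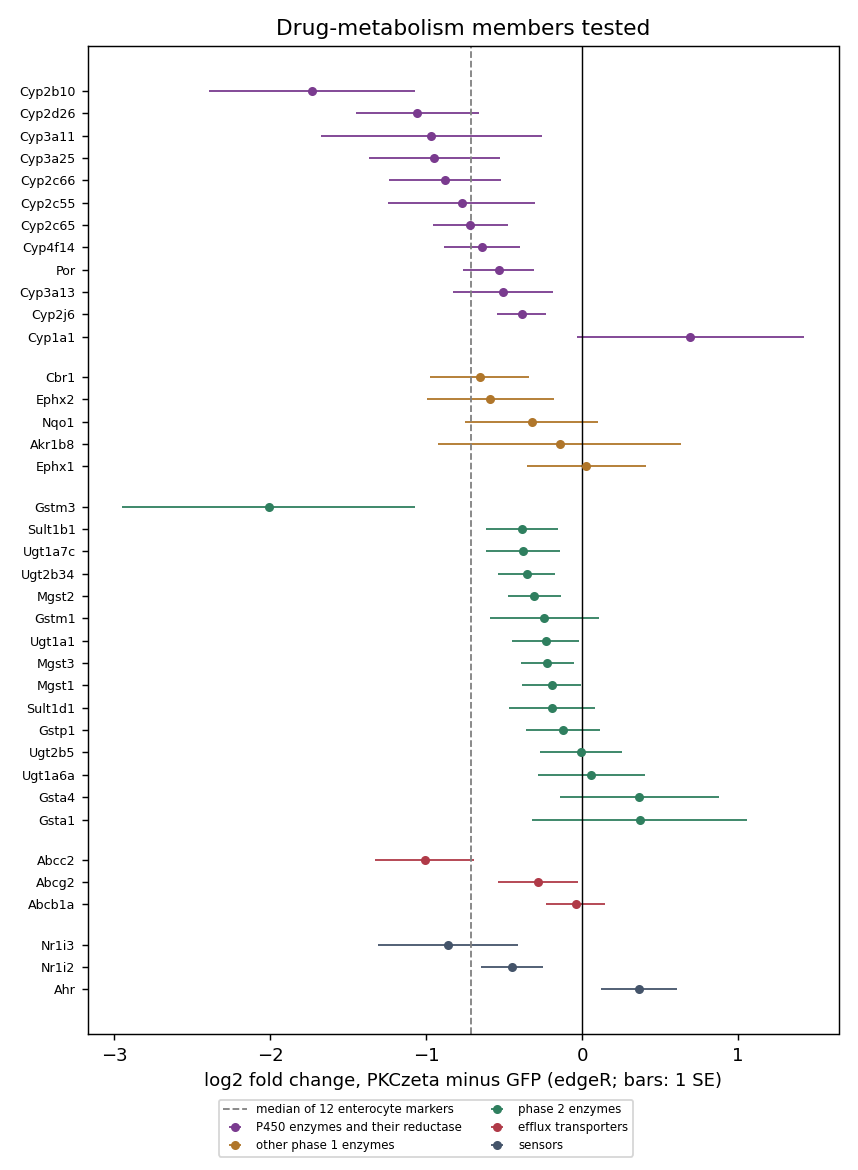
Log2 fold change of each of the 38 members tested, PKCzeta minus GFP (horizontal axis; bars are 1 SE from edgeR), ordered within role. The 11 genes of the P450 list with negative values lie between -1.73 and -0.39, most phase 2 enzymes lie nearer 0, and the dashed line marks the median of 12 enterocyte markers at -0.71.

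As a check of the labels, the level of Prkcz was read first, and it was no higher under the PKCzeta label. It stood at 70.5, 98.6 and 96.9 CPM (counts made comparable across libraries of different depth) in GFP 1-1, 1-4 and 3-1, and at 82.5, 100.1 and 57.0 CPM in PKCzeta 2-1, 4-1 and 4-2, an order of libraries kept below. Its log2 fold change was -0.15 (SE 0.24; edgeR adjusted p 0.950), so every direction here is one between labels. The sources do not give the sequence that was overexpressed, so whether its transcripts count as Prkcz here is not known. Total counts ran from 77573133 to 93742978. Ribosomal RNA took 4.40%, 1.35% and 4.67% of counts in the GFP controls and 4.44%, 2.33% and 0.956% under the PKCzeta label, so GFP 1-4 and PKCzeta 4-2 stood apart as the lowest of their groups. The libraries carried the markers of the labelled tissue. Enterocyte markers summed to between 16460 and 46850 CPM, while hepatocyte markers summed to at most 15.3 CPM with Cyp7a1 at 0 reads, and pancreatic acinar markers to at most 4.99 CPM with Amy2a5, Cela3b and Pnlip at 0. Of 10 immune cell markers, 9 were higher, with a median of 1.15 and sums of 138, 98.1 and 74.2 CPM against 276, 127 and 185 CPM. Of 7 markers of the whole epithelium, 5 were lower, with sums from 8436 to 11480 CPM and overlapping groups. Smooth muscle markers summed to 1329, 561 and 1341 CPM against 906, 1153 and 898.5 CPM, lowest in GFP 1-4. Their part in the members' levels was not tested.

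Of the P450 genes and Por, 12 of 13 could be tested, and 11 of these had a negative log2 fold change, with a median of -0.74. At an unadjusted p below 0.05 in edgeR, 7 of the 12 were lower (58.3%, against 3.07% of all genes). Of the 12, 6 lay wholly below the control range, as did 5.66% of all genes. The 12 enterocyte markers gave similar counts, with 6 lower at that threshold and 6 wholly below the control range. Cyp2c29, known from the liver, had 0 reads in all 6 libraries, and Cyp1a1 was the only member of the P450 list with a positive value. Fewer cells of a type and less RNA per cell cannot be told apart in these bulk libraries.

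Cyp4f14, a leukotriene and fatty acid omega-hydroxylase, was the most abundant member per transcript length, at a mean of 510 TPM over the 6 libraries. It stood at 1263, 1469 and 1457 CPM in the GFP controls and at 964, 1102 and 616 CPM under the PKCzeta label. Every PKCzeta library lay below every GFP library, with 4-2 the lowest. Group means were 1396 ± 115.5 and 894 ± 250.5 CPM (SD, n = 3), and the log2 difference was -0.64 (SE 0.24; edgeR unadjusted p 0.0289, adjusted p 0.872).

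Cyp2c65 (Entrez 72303, chromosome 19 from 39061006 to 39093948, plus strand, GRCm38) had the smallest p of the P450 genes. It is an intestinal member of the Cyp2c family of fatty acid and drug oxidases. It stood at 132, 189 and 224 CPM in the GFP controls against 122, 126 and 84.0 CPM under the PKCzeta label. The ranges did not overlap, but GFP 1-1 and PKCzeta 4-1 lay next to each other. The log2 fold change was -0.72 (SE 0.24; edgeR unadjusted p 0.0178, adjusted p 0.867).

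Cyp2d26, of the Cyp2d family, stood at 98.2, 135 and 127 CPM in the GFP controls and at 53.7, 92.9 and 27.1 CPM under the PKCzeta label. The 2 groups again did not overlap, and PKCzeta 4-1 lay close to GFP 1-1. The log2 fold change was -1.06 (SE 0.40; edgeR unadjusted p 0.0288, adjusted p 0.872), and -0.71 without PKCzeta 4-2. The other genes with ranges wholly below the controls were Cyp3a25, Cyp2j6, which forms epoxides from arachidonic acid, and Por. Cyp3a25 stood at 204, 275 and 304.5 CPM against 190, 162 and 53.7 CPM. Cyp2j6 stood at 242, 276 and 210.4 CPM against 193, 190 and 173 CPM. Por stood at 146, 222 and 144 CPM against 96.4, 115 and 141 CPM. In Cyp3a25 PKCzeta 4-2 lay far below the other libraries, while in Por it was the nearest to the controls. Their log2 fold changes were -0.95 (SE 0.42), -0.39 (SE 0.16) and -0.54 (SE 0.23). Shared sequence makes some counts uncertain: 26.8% of the 50-base words of Cyp3a25 occur in another gene, mostly Cyp3a59, and Cyp2c65 and Cyp2c66 share 20.2% and 24.0% of theirs with each other.

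**Figure D2:**
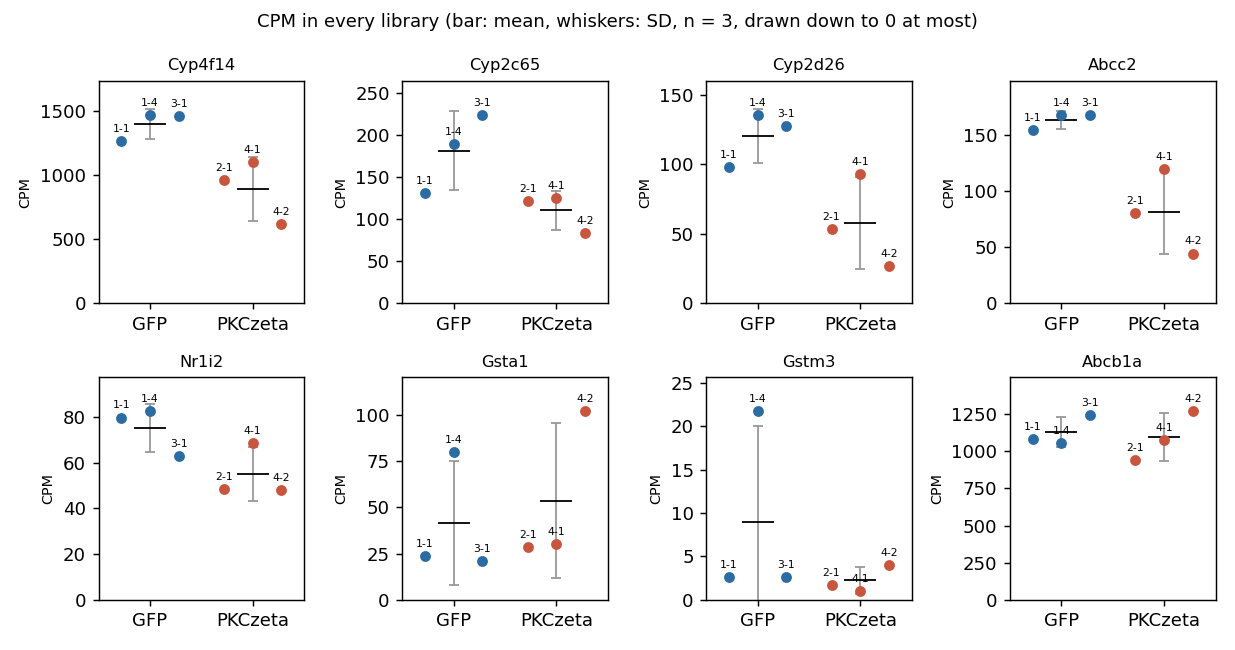
Level of 8 members in each library, in CPM on axes that start at 0; points are libraries with their numbers, horizontal bars group means and whiskers the SD (n = 3). The groups are apart for Cyp4f14, Cyp2c65, Cyp2d26 and Abcc2, whereas Gsta1 is high in GFP 1-4 and PKCzeta 4-2 and Gstm3 in GFP 1-4.

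The best known drug-inducible genes were less even. Cyp3a11, the main mouse counterpart of the human drug oxidase CYP3A4, stood at 63.4, 149.5 and 91.7 CPM in the GFP controls and at 75.8, 70.4 and 9.65 CPM under the PKCzeta label. PKCzeta 2-1 and 4-1 lay within the control range and 4-2 far below it. The log2 fold change was -0.97 (SE 0.71; edgeR unadjusted p 0.216), and -0.47 without PKCzeta 4-2. Cyp2b10, the classic target of CAR, was scarce at a mean of 2.80 TPM. It read 8.88, 8.96 and 1.68 CPM in the GFP controls and 1.89, 3.05 and 0.947 CPM under the PKCzeta label. GFP 3-1 was as low as the PKCzeta libraries, so the groups overlapped, although the log2 fold change was the most negative of the list at -1.73 (SE 0.66; edgeR unadjusted p 0.0308, adjusted p 0.878).

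Of the rest, Cyp3a13, the most abundant of the 3 Cyp3a members at a mean of 242 TPM, stood at 747, 687 and 466 CPM against 409.5, 645 and 281 CPM. PKCzeta 4-1 lay within the control range, and the log2 fold change was -0.51 (SE 0.32). Cyp2c66 ran from 5.89 to 12.8 CPM in the GFP controls and from 3.83 to 7.27 CPM under the PKCzeta label. Its log2 fold change was -0.88 (SE 0.36; edgeR unadjusted p 0.0393), and that of Cyp2c55 was -0.77 (SE 0.47), both with overlap. For Cyp2c55 the GFP libraries alone ran from 20.5 to 88.0 CPM, and its value was -0.12 without GFP 3-1. Cyp1a1, the hallmark target of the aryl hydrocarbon receptor, had between 15 and 82 reads per library. PKCzeta 2-1 alone stood out at 0.943 CPM, the other 5 libraries lying between 0.144 and 0.320 CPM, and its log2 fold change of 0.70 (SE 0.73) became -0.59 without that library.

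Summed over the 12 P450 genes, the deposited TPM was 1244, 1614 and 1280 in the GFP controls and 954, 1243 and 789 under the PKCzeta label. PKCzeta 4-1 lay next to GFP 1-1, and 4-2 was lowest. A list score, the mean over the 12 tested genes of how far their log2 CPM lay from their own means, was 0.18, 0.67 and 0.31 against -0.07, -0.06 and -1.03, without overlap. Enterocyte markers moved with it: 12 of 12 were lower, at a median of -0.71 on the log2 scale, and none was at 0 reads. Their score was 0.55, 0.70 and 0.30 against -0.57, 0.19 and -1.16, and their summed level 46850, 43590 and 39840 against 28270, 34430 and 16460 CPM. PKCzeta 4-2 was the lowest library in both lists and GFP 1-4 the highest by score in both. Markers of the proximal small intestine summed to 2611, 3770 and 1085 CPM against 771, 1305 and 722 CPM, and 7 of 8 were lower. Apoa4, Fabp1 and Lct belong to both this list and the enterocyte list. Markers of the distal small intestine and colon overlapped, with sums of 4628, 4797 and 6234 CPM against 4688, 5535 and 4600 CPM. Of the 5 tested there, 3 were lower, at a median of -0.22. The part of enterocyte content or of intestinal segment in the P450 levels was not tested. Within the 3 libraries richest in ribosomal RNA (GFP 1-1 and 3-1 and PKCzeta 2-1) the P450 list median was -0.49, and within the other 3 it was -0.86. In both sets 11 of its 12 genes were lower, beside 12 of 12 enterocyte markers and 4497 of all 18456 genes tested. Each set has 1 library in an arm (PKCzeta 2-1, and GFP 1-4), so these are values with no test. In the same sets the phase 2 median was -0.05 and -0.51, and that of the other phase 1 enzymes 0.12 and -1.10. Without GFP 1-4 and PKCzeta 4-2 together, an alternative chosen after seeing the data, the P450 median was -0.45.

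The start regions of 2 of these genes carried the same motif. In the 250 bases upstream of the RefSeq start (GRCm38.p6), CAAAGTCCA, a core of the binding motif of HNF4, the liver and gut nuclear receptor, was found on either strand in 126 of 32851 promoter windows (0.4%). Among the members it was in 2 of 45 windows, those of Cyp3a11 and Cyp2c65, which are printed 5′ to 3′ on the gene's strand. Standing lower does not set these 2 genes apart, since 11 of the 12 genes tested in their list did. The groups overlapped for Cyp3a11, whose log2 fold change was -0.09 without GFP 1-4 and PKCzeta 4-2 together. A link between motif and level was not tested. Capitals mark CAAAGTCCA and, in Cyp3a11, the nuclear receptor half-sites AGGTCA and AGTTCA, the latter read on the opposite strand as TGAACT. The Cyp3a11 window is chr5:145879855-145880104, minus strand, and the Cyp2c65 window chr19:39060756-39061005, plus strand. The bases after the Cyp2c65 window are not in a GENCODE M21 transcript, so that start is less certain.
Cyp3a11: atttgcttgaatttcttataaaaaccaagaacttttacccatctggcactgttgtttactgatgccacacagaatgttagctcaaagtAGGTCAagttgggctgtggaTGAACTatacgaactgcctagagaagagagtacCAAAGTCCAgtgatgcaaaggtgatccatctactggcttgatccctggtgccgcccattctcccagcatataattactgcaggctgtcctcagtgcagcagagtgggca
Cyp2c65: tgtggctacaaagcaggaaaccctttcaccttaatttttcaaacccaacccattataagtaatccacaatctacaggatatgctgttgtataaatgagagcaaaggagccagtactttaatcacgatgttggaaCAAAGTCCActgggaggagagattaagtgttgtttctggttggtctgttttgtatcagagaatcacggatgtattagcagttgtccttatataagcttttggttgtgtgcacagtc

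The other motifs searched were common. AGGTCA was in 22.2% of the members' 45 windows and 14.0% of all windows, and AGTTCA in 15.6% against 11.8%. GCGTG, the core bound by the aryl hydrocarbon receptor, was in 26.7% against 28.2%, and TGACNNNGC, the antioxidant response element of NRF2, in 6.7% against 10.2%. The windows belong to 36 of the 39 members. Motifs were searched on both strands, a match is a run of letters and not a bound site, and the windows of 1 gene can overlap.

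Of the 5 other phase 1 enzymes, 4 had a negative log2 fold change, with a median of -0.32 (0.05 and 0.06 on the TPM scale with pseudocounts of 1 and 0.1), and 0 had an unadjusted p below 0.05. Relative to the median of all genes, the TPM medians were -0.09 and -0.17. Without GFP 1-4 the median of the 5 was 0.14, with 2 of 5 negative. Cbr1, a carbonyl reductase, had the smallest p. It stood at 43.0, 107.5 and 58.8 CPM in the GFP controls and at 48.5, 46.0 and 38.1 CPM under the PKCzeta label. Only GFP 1-4 and 3-1 lay above all PKCzeta libraries, and the log2 fold change of -0.66 (SE 0.32; edgeR unadjusted p 0.0727) was -0.20 without GFP 1-4.

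Ephx2, the soluble epoxide hydrolase that opens fatty acid epoxides, was the most abundant of the 5, at a mean of 104 TPM. It stood at 208, 263 and 146 CPM against 121, 220 and 68.0 CPM, so that the groups overlapped and PKCzeta 4-2 was again the lowest. Its log2 fold change was -0.59 (SE 0.41; edgeR unadjusted p 0.188). Nqo1, a quinone reductase, read 24.5, 67.9 and 23.1 CPM against 29.5, 23.6 and 39.2 CPM. Akr1b8, an aldo-keto reductase, read 5.27, 32.9 and 5.48 CPM against 5.84, 13.7 and 19.9 CPM. For both genes GFP 1-4 was the highest library and PKCzeta 4-2 the next. Their log2 fold changes were -0.32 (SE 0.43) and -0.14 (SE 0.78), and they turned to 0.37 and 1.29 without GFP 1-4. On the TPM scale both were above 0, Nqo1 below the median of all genes and Akr1b8 above it. Ephx1, the microsomal epoxide hydrolase, had a log2 fold change of 0.03 (SE 0.38), its levels running from 5.42 to 15.4 CPM.

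**Figure D3:**
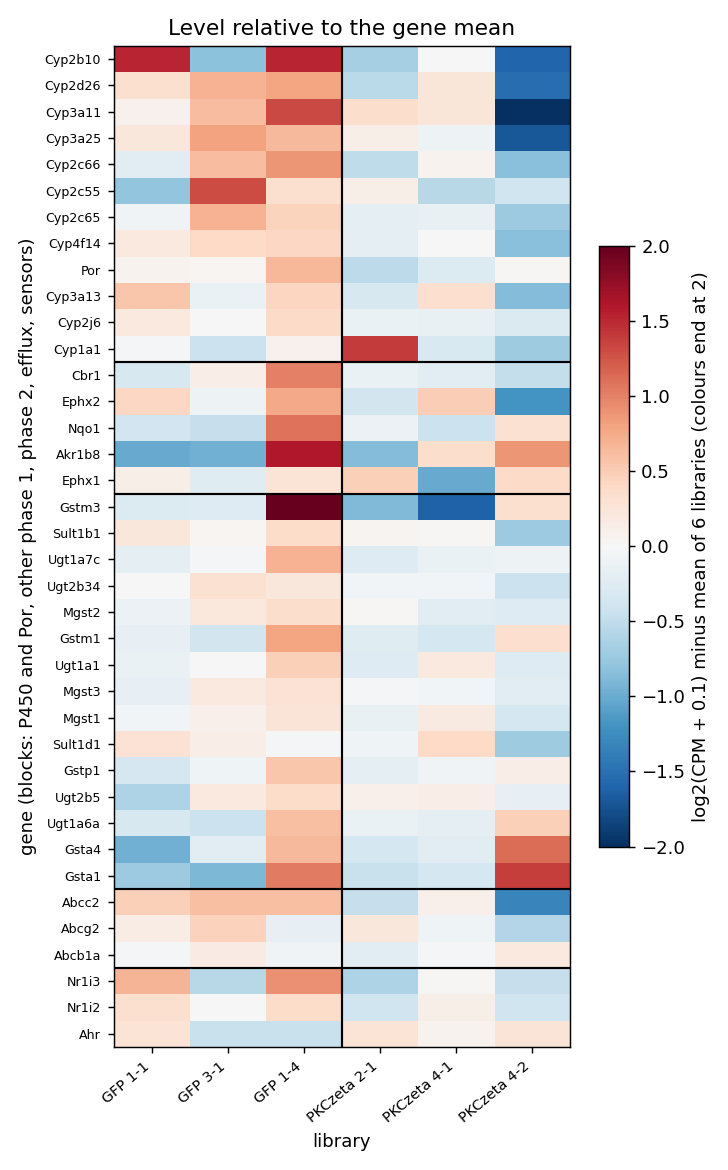
Level of each member tested (rows, in blocks by role) in each library (columns), as log2(CPM + 0.1) minus the gene's mean over the 6 libraries; colours end at 2 in either direction. PKCzeta 4-2 is the lowest library for 10 of the 12 genes of the P450 block, while GFP 1-4 and PKCzeta 4-2 are both high for Akr1b8, Gsta1 and Gsta4.

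Of the 15 phase 2 enzymes, 12 had a negative log2 fold change, with a median of -0.22, and 0 had an unadjusted p below 0.05 in either direction. Leaving out GFP 1-4 gave a median of -0.07, with 9 of 15 negative. On the deposited TPM scale, 7 of 15 were negative and the median was 0.01 at either pseudocount, where the median of all genes was 0.14 with a pseudocount of 1 and 0.23 with 0.1. Relative to those, the phase 2 median was -0.13 and -0.22, and the P450 median -0.59 and -0.69.

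Ugt2b34, a glucuronosyltransferase and the most abundant UGT member at a mean of 290 TPM, was the 1 phase 2 enzyme of 15 (6.67%) whose groups did not overlap, a share near the 5.66% of all genes that lay wholly lower. It stood at 696, 814 and 852 CPM in the GFP controls and at 668, 666 and 513 CPM under the PKCzeta label. GFP 1-1 and PKCzeta 2-1 were nearly level, and the log2 fold change was -0.36 (SE 0.18; edgeR unadjusted p 0.0905). The 3 Ugt1a members, which include the bilirubin-conjugating Ugt1a1, had log2 fold changes of -0.38 (Ugt1a7c), -0.23 (Ugt1a1) and 0.06 (Ugt1a6a), each with overlap. Ugt1a1 read 188, 286 and 204 CPM against 171, 234 and 171 CPM, with GFP 1-4 highest. Ugt1a7c likewise peaked in GFP 1-4, at 264 CPM, the other 5 libraries lying between 137 and 161 CPM. Ugt2b5 stood at -0.01, or above 0 on the TPM scale, and 41.7% of its 50-base words occur in another gene. The Ugt1a genes are alternative first exons spliced to shared ones: 1311 exon bases of Ugt1a1 (58.9%) also belong to the other 2, and 100% of the 50-base words of Ugt1a6a occur in another gene, so the split of reads among them is uncertain.

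The sulfotransferases Sult1b1 and Sult1d1, which act on phenols and catechols, were abundant, with means of 330 and 308 TPM. Sult1b1 read 406, 443.5 and 355 CPM against 359, 353 and 210 CPM, and Sult1d1 692, 560 and 622 CPM against 538, 752 and 349 CPM. The log2 fold changes were -0.39 (SE 0.23) for Sult1b1 and -0.19 (SE 0.27) for Sult1d1. In both the groups overlapped and PKCzeta 4-2 was the lowest library, while PKCzeta 4-1 was the highest for Sult1d1.

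The glutathione transferases differed by family in their spread. The 3 membrane-bound enzymes Mgst1, Mgst2 and Mgst3, which act on lipid peroxides and leukotrienes, varied little between libraries. Mgst1 was the most abundant phase 2 member, at a mean of 459 TPM. It stood at 333, 412 and 370 CPM in the GFP controls and at 311, 392 and 270 CPM under the PKCzeta label, and the groups overlapped. Its log2 fold change was -0.20 (SE 0.19; edgeR unadjusted p 0.330), and 0.02 on the TPM scale. Mgst2 read 78.5, 109 and 98.8 CPM against 86.5, 73.9 and 71.2 CPM, with a log2 fold change of -0.31 (SE 0.17; edgeR unadjusted p 0.114). For Mgst3 it was -0.22 (SE 0.17), and 0.01 on the TPM scale. On that scale Mgst1 and Mgst3 both lay below the median of all genes.

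The 5 soluble transferases varied more, and within each label. Gsta1 read 23.5, 80.2 and 21.0 CPM in the GFP controls and 28.5, 30.4 and 102 CPM under the PKCzeta label. Gsta4, which clears the lipid aldehyde hydroxynonenal, read 12.1, 37.5 and 20.5 CPM against 18.6, 20.3 and 51.6 CPM. In both genes PKCzeta 4-2 was the highest library and GFP 1-4 the next, each well above the other 4. The log2 fold changes of 0.37 (SE 0.69) and 0.37 (SE 0.51) turned to -0.49 and -0.26 without PKCzeta 4-2. Gstm3 stood at 2.65, 21.8 and 2.66 CPM against 1.69, 0.984 and 4.03 CPM. GFP 1-4 alone was high, and PKCzeta 4-2 was next. The log2 fold change of Gstm3 was the most negative of all members at -2.01 (SE 0.94; edgeR unadjusted p 0.0680), but was -0.25 without GFP 1-4. Gstm1 and Gstp1 also peaked in GFP 1-4, at 18.8 and 147 CPM, with PKCzeta 4-2 next at 13.6 and 109.7 CPM. Their log2 fold changes were -0.24 (SE 0.35) and -0.12 (SE 0.24), which were 0.04 and 0.15 on the TPM scale. The median of all genes there was 0.14 (pseudocount 1) or 0.23 (pseudocount 0.1).

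Summed over the 5 soluble transferases, the deposited TPM was 185, 457 and 197 in the GFP controls against 214, 263 and 534 under the PKCzeta label. GFP 1-4 and PKCzeta 4-2 were the highest pair for all 5, and also for Nqo1, Akr1b8 and Ugt1a6a, 8 of 38 members (21.1%). This share is near the 16.4% of all genes for which the same pair was highest, and nothing is read from it for the members. For the 8 genes the mean CPM of the pair was between 1.43 (Gstp1) and 6.46 (Gstm3) times the mean of the other 4 libraries. The 8 were picked because this pair was highest, so a ratio above 1 was fixed in advance. Over the 38 members tested the ratio ran from 0.56 (Cyp1a1) to 6.46 (Gstm3). In Gstm3, GFP 1-4 stood at 21.8 CPM and PKCzeta 4-2 at 4.03 CPM. These 2 libraries were also the lowest of their groups in ribosomal RNA, given above, and in mitochondrial mRNA, at 3.35% and 2.90% of counts where the other 4 ran from 5.64% to 10.7%. The summed markers of Paneth cells and of stem and transit amplifying cells were also highest in this pair. The 6 Paneth cell markers summed to 5860, 22080 and 8866 CPM in the GFP controls and 5979, 12240 and 18930 CPM under the PKCzeta label, and the 6 stem and transit amplifying markers to 667, 923 and 672 CPM against 563, 665 and 1015 CPM, with none at 0 reads. By list score the stem and transit amplifying markers differed from their sums: PKCzeta 4-2 (0.43) and PKCzeta 4-1 (0.20) were highest, and GFP 1-4 stood at 0.09. The part of these cell types in the levels of the transferases was not tested. Shared sequence makes 4 of the 5 counts uncertain: of the 50-base words, 89.7% in Gsta1 (mostly Gm3776), 62.3% in Gstp1 (Gstp2), 28.8% in Gstm3 and 23.1% in Gstm1 occur in another gene.

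**Figure D4:**
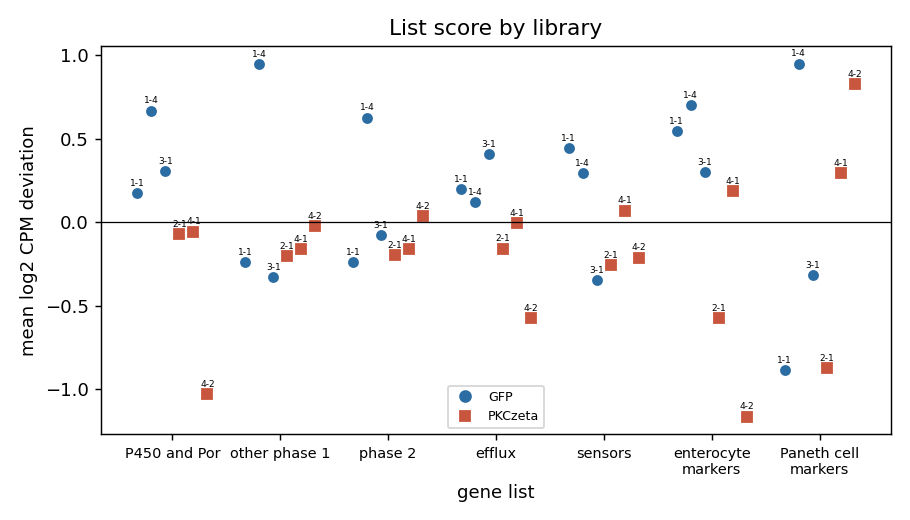
List score by library, the mean over a list's tested genes of how far log2 CPM lies from each gene's mean (vertical axis); circles are GFP and squares PKCzeta libraries, with their numbers. The P450 list does not overlap between groups, and PKCzeta 4-2 is lowest there at -1.03 and in the enterocyte markers at -1.16, whereas the other phase 1 list is led by GFP 1-4 at 0.95.

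All 3 efflux transporters had a negative log2 fold change. On the TPM scale Abcb1a stood at 0.18, where the median of all genes was 0.14 (pseudocount 1) or 0.23 (pseudocount 0.1). The median of the 3 transporters was -0.28, and 1 of the 3, Abcc2, had an unadjusted p below 0.05. Abcc2 (Entrez 12780, chromosome 19 from 43782308 to 43838332, plus strand, GRCm38), which exports glucuronide, sulfate and glutathione conjugates, had the smallest p of all 38 members. It stood at 155, 168 and 168 CPM in the GFP controls and at 80.2, 119.5 and 44.4 CPM under the PKCzeta label. The 3 GFP libraries lay close together, and every PKCzeta library lay below them. The means were 164 ± 7.80 and 81.4 ± 37.5 CPM (SD, n = 3), and the log2 difference was -1.01 (SE 0.32; edgeR unadjusted p 0.0132, adjusted p 0.858). With 1 library left out it ran from -1.39 to -0.71. Within the libraries rich and poor in ribosomal RNA it was -1.01 and -1.21, each with 1 library in an arm and no test. The window upstream of its start, chr19:43782058-43782307 on the plus strand (GRCm38.p6, RefSeq), is shown because Abcc2 led the set, with TGACNNNGC and AGGTCA in capitals.
Abcc2: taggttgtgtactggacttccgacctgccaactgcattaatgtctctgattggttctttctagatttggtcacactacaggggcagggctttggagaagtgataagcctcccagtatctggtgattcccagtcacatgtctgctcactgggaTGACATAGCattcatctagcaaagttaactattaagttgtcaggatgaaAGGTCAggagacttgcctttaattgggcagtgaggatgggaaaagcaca

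Abcg2 and Abcb1a, which return drugs to the gut lumen, were far more abundant per transcript length than Abcc2, at means of 338 and 277 TPM against 28.1 TPM. Abcg2, the breast cancer resistance protein, stood at 649, 518 and 802 CPM against 682, 550 and 387 CPM, with overlap and a log2 fold change of -0.28 (SE 0.26; edgeR unadjusted p 0.303). Abcb1a, which encodes P-glycoprotein, stood at 1085, 1057 and 1247 CPM against 944, 1079 and 1270 CPM. It was lowest in PKCzeta 2-1 and highest in PKCzeta 4-2, the lowest library for 10 of the 12 genes of the P450 list. Its log2 fold change was -0.04 (SE 0.19; edgeR unadjusted p 0.831).

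Of the 3 sensors, 2 had a negative log2 fold change, with a median of -0.45, and 0 had an unadjusted p below 0.05. Nr1i2, which encodes PXR, was the most abundant, at a mean of 33.0 TPM. It stood at 79.7, 82.4 and 62.9 CPM in the GFP controls and at 48.4, 68.6 and 47.9 CPM under the PKCzeta label. PKCzeta 4-1 lay above GFP 3-1, so that the groups overlapped, and the log2 fold change was -0.45 (SE 0.20; edgeR unadjusted p 0.0534). Nr1i3, which encodes CAR, was scarce, at 2.04, 2.40 and 0.811 CPM against 0.770, 1.25 and 0.871 CPM. GFP 3-1 was as low as the PKCzeta libraries, and the log2 fold change was -0.86 (SE 0.45; edgeR unadjusted p 0.0926). Of the exon bases of Nr1i3, 74.9% overlap Tomm40l on the opposite strand, and the sources do not say whether strand was used in counting. Ahr ran the other way, at 18.4, 11.2 and 11.2 CPM against 18.4, 15.9 and 18.1 CPM. GFP 1-1 and PKCzeta 2-1 were level, and its log2 fold change was 0.37 (SE 0.24; edgeR unadjusted p 0.173).

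**Figure D5:**
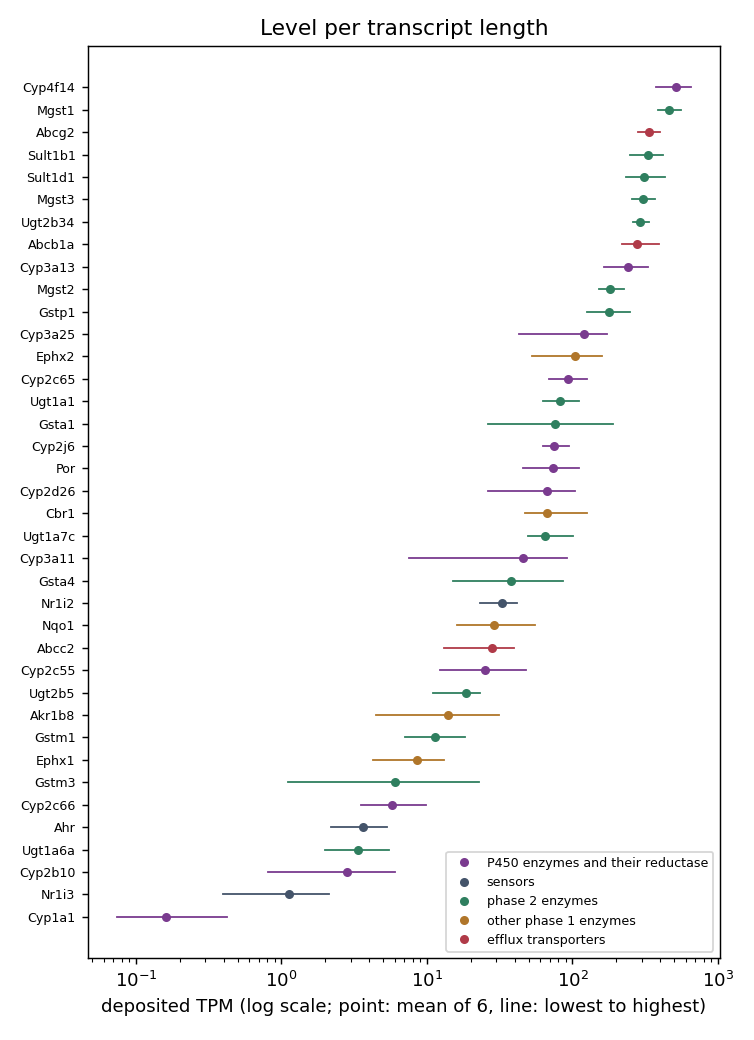
Deposited TPM of the 38 members with reads (horizontal log axis; point, mean of 6 libraries; line, lowest to highest library). Cyp4f14 at 510 and Mgst1 at 459 TPM lead, Cyp1a1 is last at 0.16 TPM, and the lines are widest for genes such as Cyp3a11 and Gstm3.

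Lists of known targets of these sensors differed in their medians, which are given as descriptions. Of 9 targets of PXR and CAR tested, 8 were lower, with a median of -0.54. The 3 at an unadjusted edgeR p below 0.05 (33.3%, against 3.07% of all genes) were Abcc2, Cyp2b10 and Por. All 10 genes listed as PXR and CAR targets are among the 39 members, so these counts repeat values given above. Of 7 targets of the aryl hydrocarbon receptor, 2 were lower and 5 higher, with a median of 0.14 and 0 at an unadjusted p below 0.05. Of 21 targets of NRF2, the oxidant-responsive factor that induces Nqo1 and many glutathione transferases, 14 were lower, with a median of -0.12 and 0 at an unadjusted p below 0.05. These 2 lists also repeat members in part. Cyp1a1, Nqo1 and Ugt1a6a are in that of the aryl hydrocarbon receptor. Nqo1, Gsta1, Gsta4, Gstm1, Gstm3, Akr1b8, Cbr1 and Ephx1 are in that of NRF2. In the lists of the aryl hydrocarbon receptor and NRF2, no gene outside the 39 had an unadjusted p below 0.05.

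Further genes of the same pathways were counted in the same way. Of 198 genes listed, 197 were in the table, 145 could be tested, 102 were lower, and their median was -0.16 on the log2 scale. At an unadjusted p below 0.05 in edgeR, 17 were lower (11.7%, against 3.07% of all genes) and 1 was higher, and 0 passed the adjusted threshold. DESeq2, which called 0.444% of all genes and 2 of the 12 enterocyte markers, called 2 of these 145. Both were lower: Ugt2a3, another glucuronosyltransferase, and the alcohol dehydrogenase Adh6a. Ugt2a3 stood at 9.88, 19.1 and 4.48 CPM in the GFP controls against 2.36, 3.26 and 2.38 CPM under the PKCzeta label, without overlap and with a log2 fold change of -2.07 (SE 0.49; adjusted p 0.858 in edgeR and 0.00563 in DESeq2). Adh6a stood at 29.3, 28.9 and 12.2 CPM against 6.15, 12.5 and 6.56 CPM, with PKCzeta 4-1 just above GFP 3-1 (log2 fold change -1.48, SE 0.41; adjusted p 0.858 in edgeR and 0.0498 in DESeq2).

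By role, 23 of 33 other P450 genes and P450 electron donors were lower, with a median of -0.31. At an unadjusted p below 0.05, 9 were lower (27.3%, against 3.07% of all genes, the share to set beside each count that follows) and 1 was higher, and Cyp2d22 (-1.06), Cyp4f13 (-0.71) and Cyp4f16 (-0.77) had the smallest p. Of 37 other oxidoreductases and hydrolases, 29 were lower, with a median of -0.19 and 5 (13.5%) lower at an unadjusted p below 0.05, led by Adh4 (-1.80), Aldh1a7 (-0.76) and Adh6a. Of 45 other conjugating enzymes, 30 were lower, with a median of -0.09, and Ugt2a3 alone (2.22%) had an unadjusted p below 0.05, followed by Gstk1 (-0.66) and Gstm6 (-0.76). Of 18 other transporters, 13 were lower, with a median of -0.18, and the carnitine and organic cation carriers Slc22a4 (-0.70) and Slc22a5 (-0.57) had an unadjusted p below 0.05 (11.1%), with Abcc3 (-0.44) next. Of 12 other regulators, 7 were lower, with a median of -0.12 and 0 at an unadjusted p below 0.05. The smallest p there belonged to Vdr (-0.41), the vitamin D receptor, Hnf4a (-0.33) and Ahrr (0.67), the repressor of the aryl hydrocarbon receptor.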

How the data were processed

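Per the labels' protocols, RNA was column-purified, depleted of ribosomal RNA and made into strand-keeping libraries. The build was mm10 and the tools were HISAT2, StringTie, Trimmomatic and FastQC, per the submitters' processing notes, and the program that counted reads is not stated. The authors deposited whole-number read counts, FPKM and TPM per gene, per the file headers. The deposited FPKM values were not used, and the deposited TPM values served for levels across genes and for 2 alternative tests.

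Counts of all 6 libraries were fitted with edgeR 4.0.16 (filterByExpr, minimum count 10, 18456 genes kept; TMM; robust quasi-likelihood F test, two-sided; Benjamini-Hochberg over all genes). The biological coefficient of variation was 0.354. Fold changes are PKCzeta minus GFP. Total counts of 77573133 to 93742978 make counting error small except for genes below 1 CPM. The fit was tested on simulated data. Alternatives were DESeq2 1.42.0, its size factors, upper quartile scaling, limma 3.58.1 voom with sample weights, limma on log2(TPM + 1) and log2(TPM + 0.1), no filter or a mean of at least 1 CPM, the table without ribosomal RNA and mitochondrial rows, and each library left out. Exon overlaps and shared 50-base words came from GENCODE M21, and positions and promoter windows from RefSeq, both of GRCm38, the assembly that mm10 names. No protein sequence was used here.

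The members and all lists were chosen with earlier results of these data known. In each role, values in every library are given for the 3 members with the smallest unadjusted p and for the one with the highest mean TPM; other members given in full were chosen after their values were seen. From wider lists, up to 3 genes with the smallest p and a mean of at least 1 CPM are named.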

Additional observations from a re-analysis of the deposited data

How the results depend on the processing

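No member passed the adjusted threshold under any setting run, including each library left out. The count lower at an unadjusted p below 0.05, 8 in the fit reported, was 5 with limma voom, 3 on log2(TPM + 1), 3 on log2(TPM + 0.1) and 2 without GFP 1-4 and PKCzeta 4-2 together, an alternative chosen after seeing the data. It ran from 2 to 11 with each library left out in turn, and the count higher from 0 to 1. The matching shares of all genes under these alternatives are not given, so the counts cannot be set against them. With 1 library left out, the efflux median ran from -0.52 to -0.10, the other phase 1 median from -0.59 to 0.14, the phase 2 median from -0.36 to -0.07 and the P450 median from -1.01 to -0.56.

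Of 607 values of single members under an alternative, 557 kept their sign and 50, in 15 genes, did not. With limma voom these were Nqo1 (0.025), Ephx1 (-0.19), Akr1b8 (0.72), Ugt2b5 (0.072) and Gstp1 (0.015). On log2(TPM + 0.1) and log2(TPM + 1) they were Nqo1 (0.060 and 0.054), Akr1b8 (0.47 and 0.41), Ugt2b5 (0.27 and 0.25), Gstm1 (0.045 and 0.038), Gstp1 (0.15 and 0.15), Mgst1 (0.017 and 0.017), Mgst3 (0.010 and 0.010) and Abcb1a (0.18 and 0.18). The median of all genes on these scales was 0.23 and 0.14. Ugt2b5 was 0.0034 with upper quartile scaling and 0.0049 after a filter on mean CPM. Without both libraries low in ribosomal RNA they were Nqo1 (0.16), Ephx1 (-0.030), Akr1b8 (0.87), Ugt1a1 (0.049), Ugt2b5 (0.27), Gstp1 (0.087) and Mgst1 (0.00085). With each library left out, the ranges that crossed 0 were -0.59 to 1.12 for Cyp1a1, -0.59 to 0.37 for Nqo1, -0.28 to 0.37 for Ephx1, -0.56 to 1.29 for Akr1b8, -0.18 to 0.47 for Ugt1a6a, -0.26 to 0.19 for Ugt2b5, -0.49 to 0.055 for Sult1d1, -0.49 to 1.27 for Gsta1, -0.26 to 0.89 for Gsta4, -0.48 to 0.21 for Gstm1, -0.31 to 0.18 for Gstp1 and -0.15 to 0.036 for Abcb1a. The cause was not tested. No paired analysis was possible because the groups share no replicate numbers. With 3 libraries a group, an exact permutation test of 1 gene cannot go below a p of 0.10. Counting error matters most below 1 CPM. Cyp1a1 lies there in every library, Nr1i3 in GFP 3-1 and PKCzeta 2-1 and 4-2, Cyp2b10 in PKCzeta 4-2 alone and Gstm3 in PKCzeta 4-1 alone.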
